A study of Macaca mulatta with 4 samples.

Results

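SNRPN, SNURF, NDN and UBE3A are the imprinted genes of the Prader-Willi and Angelman region that could be matched to the count table. They were taken by symbol, each symbol had 1 Ensembl macaque identifier, and they make up 4 of the 21314 genes measured. RNA came from rhesus macaque (Macaca mulatta) morulae, the compacting stage before the blastocyst, in 2 libraries with genotype AG and 2 with genotype GG. The series describes androgenetic embryos, whose nuclear genome comes from the father alone, and gynogenetic embryos, whose genome comes from the mother alone. The labels do not say how either kind of embryo was made, how many embryos entered a library, or whether replicates came from separate parents. P-values therefore set the group difference only against the spread within these groups of samples, and that spread may be technical. No library of embryos with both genomes is among the 4, so no level is set against a biparental embryo.

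Genomic imprinting is the marking of a gene according to the parent that transmitted it, so that one parental copy is read and the other is silent. In the Prader-Willi and Angelman region the mark sits at the imprinting centre, which overlaps the start of the SNURF-SNRPN transcript. On the maternal chromosome the centre carries DNA methylation and the transcript is silent. On the paternal chromosome it is unmethylated, and SNURF, SNRPN and, in many tissues, NDN are read from it. UBE3A has the opposite pattern, but only in neurons, where a long extension of the paternal SNRPN transcript runs antisense through it. Loss of the paternal genes causes Prader-Willi syndrome in people, and loss of maternal UBE3A causes Angelman syndrome.

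The libraries held 14129608 to 29733977 estimated counts, with 15370 to 16313 genes above 0. Y-linked genes checked the labels: 5 of 6 tested were called lower in GG, beside 6.58% of all tested genes. The exception was UTY, with 1.83 ± 0.139 CPM (counts scaled to library size) for AG and 4.28 ± 0.0733 CPM for GG (SD, n = 2). Summed over the 8 Y-linked genes, AG replicate 1 had 181 CPM, AG replicate 2 had 1541 CPM, and the GG libraries had 5.80 to 6.51 CPM. AG replicate 2 was therefore far above AG replicate 1 in Y-linked RNA, and the fold changes of the 4 genes are given also without either AG library.

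In GG morulae, 2 of the 4 genes were almost without reads and the other two were expressed. SNRPN and SNURF were read in both AG libraries and were almost without reads in both GG libraries. NDN, which the paternal chromosome expresses in many tissues, was present in GG at a level inside the range of the AG libraries. UBE3A was present in all 4 libraries, slightly more in GG, and was not called. With edgeR's quasi-likelihood test, 2 of the 4 genes passed an adjusted p of 0.05, both lower in GG, against 12.9% of all genes tested in either direction, 6.58% lower in GG and 6.34% higher in GG.

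SNRPN (ENSMMUG00000023139, chromosome 7) encodes SmN, a protein of the ring that holds the small nuclear RNAs of the spliceosome. It had 1730 and 4067 counts in AG replicates 1 and 2, and 5 and 3 counts in GG replicates 1 and 2. As CPM these were 123 and 207 CPM in AG against 0.237 and 0.102 CPM in GG. Both AG libraries were high, both GG libraries were low, and the groups did not overlap, as in 64.1% of all tested genes (30.7% with GG lower). The AG mean was 165 ± 58.9 CPM and the GG mean 0.170 ± 0.0956 CPM (SD, n = 2). The fitted log2 fold change, GG minus AG, was -9.94 ± 0.61 (SE, 95% interval -11.45 to -8.42; edgeR adjusted p = 0.00488). Of 13227 genes tested, 16 had a more negative fold change.

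Counting error alone put the AG level at 549 to 2509 times the GG level for SNRPN, around a ratio of 1083 (exact 95% interval on the 5797 counts of AG and 8 of GG). The GG level was 0.0924% of the AG level. Y-linked genes, which a genome of maternal origin does not carry, also had residual reads in GG, to very unequal degrees. The GG level as a percentage of the AG level was 0.0531% for RPS4Y1, 0.0961% for DDX3Y, 0.284% for RPS4Y2, 0.449% for EIF1AY and 3.97% for KDM5D. USP9Y had 2 counts in GG, and its ratio of AG to GG was 256 (exact 95% counting interval 70.4 to 2124). ZFY had 0 counts in GG and 143 in AG, all of them from replicate 2. UTY had more in GG, at 237% of the AG level. KDM5D stood at 0.142 CPM for AG replicate 1, between the GG libraries at 0.0341 and 0.285 CPM. Apart from UTY, most AG reads of these Y-linked genes came from AG replicate 2, so the percentages rest mainly on that library. Several of these genes have close X-linked copies, so reads could be divided between copies and the percentages give no common background. The source of the residual SNRPN reads was not tested.

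SNURF (ENSMMUG00000041221, chromosome 7) encodes a small protein read from the same transcript as SNRPN, upstream of it. It had 79 and 138 counts in AG replicates 1 and 2, and 2 and 1 counts in GG replicates 1 and 2. The levels were 5.63 and 7.01 CPM in AG against 0.0950 and 0.0341 CPM in GG. As for SNRPN, both AG libraries were high and both GG libraries low. With 3 counts in GG, the ratio of AG to GG was 108 (exact 95% counting interval 36.5 to 528). The fitted log2 fold change of SNURF was -6.56 ± 0.84 (SE, 95% interval -8.63 to -4.48; edgeR adjusted p = 0.0162). The call of SNURF was lost without GG replicate 1 (log2 fold change -7.30) and without GG replicate 2 (-5.98). Most genes called with all libraries lost their call in these fits. SNRPN kept its call in both fits (log2 fold change -10.57 and -9.42).

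Because a read can lie in the part both genes share, the estimated counts divide SNRPN from SNURF with uncertainty, and the pair are not independent observations. Of the counts assigned to either gene, SNURF took 4.37% in AG replicate 1 (exact Clopper-Pearson 95% interval 3.47 to 5.41%) and 3.28% in AG replicate 2 (2.76 to 3.87%). In GG the pair together had 7 and 4 counts, too few to give a share. Summed into 1 feature, SNRPN and SNURF stood at 129 and 214 CPM in AG and 0.332 and 0.136 CPM in GG. The log2 fold change of the sum was -9.54 ± 0.62 (SE; edgeR adjusted p = 0.00488).

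SmN is nearly the same protein as SmB, which SNRPB encodes on another chromosome, and the 2 proteins take the same place in the Sm ring. SNRPB averaged 1090 ± 4.01 CPM over the AG libraries and 916 ± 59.3 CPM over the GG libraries (SD, n = 2), a difference that was not called (log2 fold change -0.25 ± 0.20 SE, edgeR adjusted p = 0.442). Of the counts assigned to SNRPN or SNRPB, SNRPN held 10.1% in AG replicate 1 (exact 95% interval 9.69 to 10.6%) and 16.0% in AG replicate 2 (15.5 to 16.4%). In GG it held 0.0272% in replicate 1 (0.00882 to 0.0634%) and 0.0107% in replicate 2 (0.00220 to 0.0312%). The mean share was 13.1 ± 4.12% in AG and 0.0189 ± 0.0117% in GG (SD, n = 2). The exact two-sided permutation test over the libraries gave p = 0.333, the smallest value that 2 against 2 libraries allow. These shares are not corrected for transcript length, so they compare libraries and not the 2 genes.

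NDN (ENSMMUG00000005161, chromosome 7) encodes necdin, a MAGE-family protein known for restraining cell division and for its abundance in neurons. It had 83 and 380 counts in AG replicates 1 and 2, and 272 and 338 counts in GG replicates 1 and 2. The levels were 5.91 and 19.3 CPM in AG, and 12.9 and 11.5 CPM in GG. The GG libraries lay between the AG libraries, so the groups overlapped. The AG mean was 12.6 ± 9.47 CPM and the GG mean 12.2 ± 0.985 CPM (SD, n = 2).

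The fitted log2 fold change of NDN was -0.05 ± 0.62 (SE; edgeR adjusted p = 0.966). Its 95% interval, -1.58 to 1.48, spans a GG level from 0.334 to 2.80 times that of AG. A change of the size of SNRPN's lies outside that interval, and changes within it were not detectable in these libraries. Within AG the higher library stood 3.26 times above the lower. Counting error did not cover that gap: its exact 95% interval ran from 4.71 to 7.33 CPM for the lower library and from 17.4 to 21.3 CPM for the higher. Without AG replicate 1 the fold change was -0.67 ± 0.36 (adjusted p = 0.262), and without AG replicate 2 it was 1.03 ± 0.45 (adjusted p = 0.146). The direction of NDN therefore changed with the AG library left out, and neither fit passed the test.

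UBE3A (ENSMMUG00000000628, chromosome 7) encodes the ubiquitin ligase E6AP, which marks proteins for the proteasome. It had 466 and 666 counts in AG replicates 1 and 2, and 929 and 1428 counts in GG replicates 1 and 2. The levels were 33.2 and 33.8 CPM in AG, and 44.1 and 48.7 CPM in GG. Both GG libraries lay above both AG libraries. The AG mean was 33.5 ± 0.445 CPM and the GG mean 46.4 ± 3.23 CPM (SD, n = 2).

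For UBE3A the GG level was 1.38 times that of AG (95% interval 0.836 to 2.29; log2 fold change 0.47 ± 0.29 SE, edgeR adjusted p = 0.326). That difference did not pass the test. Groups that do not overlap with GG higher were found for 33.4% of all tested genes. The absolute fold change of UBE3A was larger than that of 31.6% of tested genes, below the median of 0.80 on the log2 scale. Strand was not stated for the counting, so reads of an antisense transcript over UBE3A cannot be told apart from its own.

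**Figure D1:**
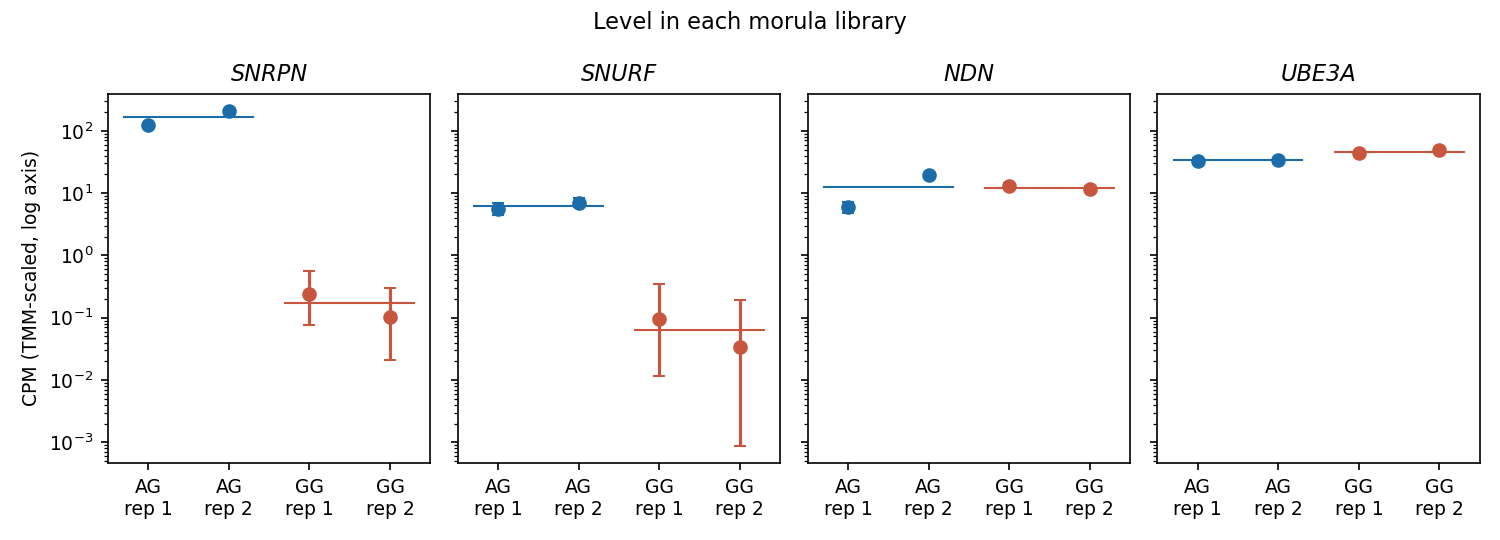
Level of each gene in each library, in CPM on a log axis; points are libraries, bars are exact 95% Poisson intervals for counting error, and horizontal lines are group means. SNRPN and SNURF drop from AG to GG, NDN in GG lies between its AG libraries of 5.91 and 19.3 CPM, and UBE3A lies between 33.2 and 48.7 CPM in all libraries.

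The AG libraries differed from each other to unequal degrees across the 4 genes. The higher AG library stood 1.68 times above the lower for SNRPN, 1.25 times for SNURF, 3.26 times for NDN and 1.02 times for UBE3A, and AG replicate 2 was the higher for each. Without AG replicate 1 the log2 fold changes were -10.29 for SNRPN, -6.73 for SNURF and 0.45 for UBE3A, and without AG replicate 2 they were -9.55, -6.42 and 0.47; no call changed. Over all tested genes the median of this ratio was 1.53. A larger ratio than that of NDN was found for 16.3% of tested genes, and a larger ratio than that of UBE3A for 97.5%. Between the GG libraries the ratio was 2.32 for SNRPN and 2.79 for SNURF, on 1 to 5 counts a library, 1.12 for NDN and 1.10 for UBE3A, against a median of 1.29 over all tested genes.

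Of 22 genes listed for the region, 12 were measured and all 12 were tested. The 10 others, among them the paternally expressed MAGEL2, MKRN3 and NPAP1, the host transcript SNHG14 and the maternally expressed ATP10A, were not analysed here. Outside the 4 members, 8 flanking genes that are read from both copies in most tissues were tested. Of the 8, edgeR called 0 (CYFIP1 and GABRG3 had an unadjusted p under 0.05), beside 12.9% of all tested genes, and DESeq2 called 2, beside 25.2%. Their median log2 fold change was -0.22, against 0.04 over all tested genes, and they ranged from -1.16 to 2.19. On either side of SNRPN and SNURF in gene order, UBE3A and NDN were thus the nearest measured genes, and neither was called.

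All 8 flanking genes lie on the UBE3A side of SNRPN, and CYFIP1 and GABRG3 had the smallest p among them. CYFIP1, a regulator of actin and of translation, gave 14.3 and 9.80 CPM for AG against 28.4 and 32.4 CPM for GG (log2 fold change 1.34 ± 0.37 SE, edgeR adjusted p = 0.0699). GABRG3, a subunit of the GABA-A receptor, gave 2.21 and 1.27 CPM for AG against 6.22 and 9.62 CPM for GG (2.19 ± 0.60, adjusted p = 0.0680). In both genes the GG libraries lay above the AG libraries, as they did for HERC2, a ubiquitin ligase that binds E6AP (AG 19.2 ± 1.92, GG 30.7 ± 5.81 CPM; SD, n = 2). This order was found for 33.4% of all tested genes. The Wald test of DESeq2, which called 25.2% of all tested genes, called CYFIP1 and GABRG3 (adjusted p = 0.0176 and 0.0125). GABRG3 also passed without a filter on low counts (0.0465). Of the alternatives that kept all libraries, 1 of 7 called CYFIP1 and 2 of 6 called GABRG3. With 1 library left out, log2 fold changes were 1.07 to 1.63 for CYFIP1 and 1.81 to 2.63 for GABRG3.

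The remaining flanking genes showed smaller or more scattered values. GABRA5, another GABA-A receptor subunit, gave 15.8 and 32.0 CPM for AG against 19.9 and 19.7 CPM for GG. OCA2, a melanosome transporter gene, had 4.77 and 5.54 CPM in AG and 3.56 and 1.06 CPM in GG. NIPA1 and NIPA2, magnesium transporter genes, had log2 fold changes of -0.94 ± 0.60 and -0.31 ± 0.27. TUBGCP5, of the complex that nucleates microtubules, had -0.16 ± 0.39. Groups overlapped for GABRA5, NIPA1 and TUBGCP5, and did not overlap for OCA2 and NIPA2. With CYFIP1, GABRG3 and HERC2, groups did not overlap for 5 of the 8 flanking genes, a share near the 64.1% of all tested genes.

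**Figure D2:**
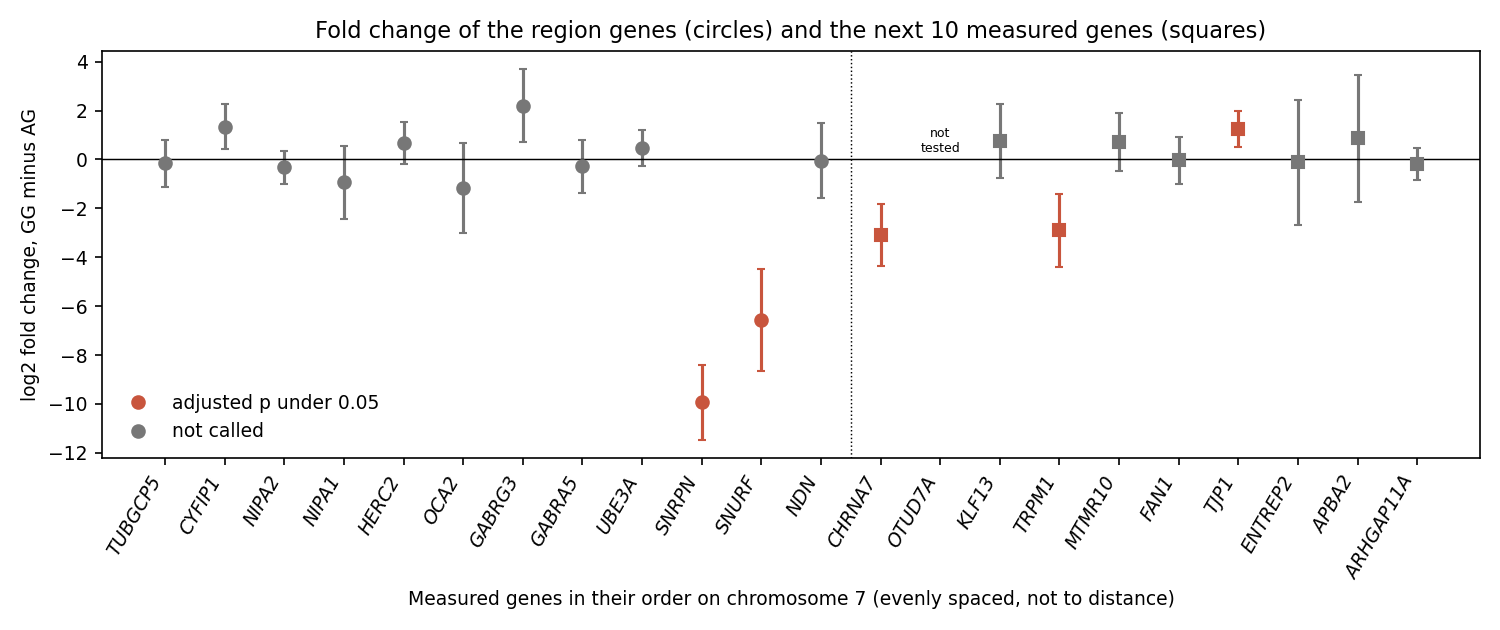
Log2 fold change (GG minus AG) with its 95% interval for the 12 measured region genes (circles) and for 9 of the next 10 measured genes of chromosome 7 (squares; OTUD7A was not tested), in gene order and evenly spaced; red marks an adjusted p under 0.05. SNRPN at -9.94 and SNURF at -6.56 stand below every other gene shown, while UBE3A and NDN on either side lie near 0.

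Of the next 10 measured genes of chromosome 7 beyond NDN, 9 were tested and 3 were called, beside 12.9% of all tested genes; these 3 were chosen after their values were seen. CHRNA7, a subunit of the nicotinic acetylcholine receptor, fell from 73.6 ± 27.8 to 8.71 ± 4.21 CPM (SD, n = 2; log2 fold change -3.08 ± 0.52 SE, edgeR adjusted p = 0.0261). TRPM1, a cation channel gene, also fell (log2 fold change -2.90 ± 0.60, adjusted p = 0.0376). TJP1, which encodes the tight junction protein ZO-1, rose by 1.24 ± 0.30 (adjusted p = 0.0497). TJP1 was not called with DESeq2 size factors (0.0530), upper-quartile normalization (0.0520) or the replicate block (0.0555). TRPM1 was not called without AG replicate 1 (0.0514) or with the replicate block (0.0525). Gene order was read by symbol from a table of another assembly, and no coordinates were used.

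Genes known to set or keep the imprint were also measured. Of 18 listed, 17 were tested; 3 were called higher in GG, 0 lower, and 14 were not called, with a median log2 fold change of -0.05. Of all tested genes, 12.9% were called in either direction and 6.34% higher in GG. An unadjusted p under 0.05 was found for 8 of the 17, and DESeq2 called 7, against 25.2% of all tested genes by DESeq2. The share of all tested genes at the unadjusted threshold was not computed, so the count at that threshold has no background here. DNMT3A and DNMT3B, the methyltransferases that lay down new DNA methylation, rose by 3.26 ± 0.34 and 4.87 ± 0.72 (log2, SE; edgeR adjusted p = 0.0115 and 0.0208). ZFP57, a zinc finger protein that binds methylated imprinting centres, was higher by 3.36 ± 0.57 (adjusted p = 0.0269). DNMT3L, the cofactor of those methyltransferases, had 61.5 and 197 CPM in the AG libraries against 390 and 418 CPM in the GG libraries, without passing the test (adjusted p = 0.102). DNMT3L passed in 3 of the 7 alternatives that kept all libraries, and its log2 fold change was 1.03 to 2.70 with 1 library left out. Other members had values of the opposite sign and were not called. DNMT1, the methyltransferase that copies methylation at cell division, had 289 and 110 CPM in the AG libraries against 46.9 and 12.002 CPM in the GG libraries (log2 fold change -2.76 ± 0.78, edgeR adjusted p = 0.0721). TRIM28, the corepressor that ZFP57 recruits, had -1.19 ± 0.33 (adjusted p = 0.0692), SMCHD1, a chromosomal silencing protein, -1.04 ± 0.30 (0.0783) and NRF1, a transcription factor, -0.99 ± 0.37 (0.132); these 4 were chosen after their values were seen. With 1 library left out, log2 fold changes were -4.04 to -1.92 for DNMT1 and -1.49 to -0.86 for TRIM28. They were -1.25 to -0.87 for SMCHD1 and -1.28 to -0.65 for NRF1. Of the 7 alternatives that kept all libraries, 3 called DNMT1, 2 TRIM28, 1 SMCHD1 and 0 NRF1. DESeq2 called DNMT1, TRIM28 and SMCHD1 (0.000568, 0.0139 and 0.0170), the fit without a filter called DNMT1 and TRIM28 (0.00926 and 0.0415), and the replicate block called DNMT1 (0.0114).

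The partners of SNRPN were not called in either direction, 0 of 14 tested by edgeR, beside 12.9% of all tested genes. DESeq2 called 1, beside 25.2% of all tested genes by DESeq2. An unadjusted p under 0.05 was found for 3 of the 14, without a share over all tested genes to set beside it. SNRPD2 passed without AG replicate 2 (edgeR adjusted p = 0.0414). Their median log2 fold change was -0.21, within a range of -1.20 to 0.44. The Sm ring genes SNRPD2, SNRPD3 and SNRPE had values of 0.40 ± 0.28, 0.17 ± 0.29 and 0.44 ± 0.22.

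Among MAGE relatives and partners of NDN, 8 of 15 listed genes were tested, 1 was called higher in GG, 0 lower and 7 were not called, a share near the 12.9% of all tested genes. DESeq2 called 3 of the 8, beside 25.2% of all tested genes by DESeq2. An unadjusted p under 0.05 was found for 3, without a share over all tested genes to set beside it. MAGED2, an X-linked MAGE gene, rose from 1.14 and 2.79 CPM in the AG libraries to 15.7 and 14.3 CPM in the GG libraries (log2 fold change 2.91 ± 0.60 SE, edgeR adjusted p = 0.0372). E2F4, NUCB2, a calcium-binding partner of necdin, and MAGEH1 were not called, at 0.02 ± 0.27, 1.49 ± 0.40 and 2.54 ± 0.94. MAGED1 (0.81 ± 0.38) and E2F1 (-1.04 ± 0.54), also uncalled, are named outside the naming rule. NUCB2 passed in 3 of the 7 alternatives that kept all libraries: with DESeq2 (adjusted p = 0.00981), without a filter (0.0302) and with the replicate block (0.0402). Its log2 fold change was 1.10 to 1.97 with 1 library left out. E2F4, MAGEH1 and E2F1 were not followed in the alternatives. The list had a median of 0.61.

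Of 15 listed ubiquitin partners of UBE3A, 13 were tested; 2 were called lower in GG, 0 higher and 11 were not called, beside 6.58% called lower and 12.9% called either way over all tested genes. DESeq2 called 2, beside 25.2% of all tested genes by DESeq2. An unadjusted p under 0.05 was found for 4 of the 13, without a share over all tested genes to set beside it. MAPK6, a kinase found in a complex with E6AP and HERC2, fell from 442 ± 29.6 to 73.8 ± 4.05 CPM (SD, n = 2; log2 fold change -2.58 ± 0.24 SE, edgeR adjusted p = 0.00821). PML, a nuclear body protein that E6AP targets, fell from 7.44 ± 1.55 to 0.613 ± 0.195 CPM (adjusted p = 0.0280). UBE2L3, the conjugating enzyme that loads E6AP, and UBE2D3, another such enzyme, were not called, at 0.46 ± 0.27 and -0.35 ± 0.28. The median of the list was -0.20.

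Without GG replicate 1 or GG replicate 2, MAGED2, MAPK6, PML, DNMT3A, DNMT3B and ZFP57 each lost their call, as did CHRNA7, TRPM1 and TJP1. Each kept the sign of its fold change. Most of the 1709 genes called with all libraries lost their call in these fits, so the loss is not particular to these genes.

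**Figure D3:**
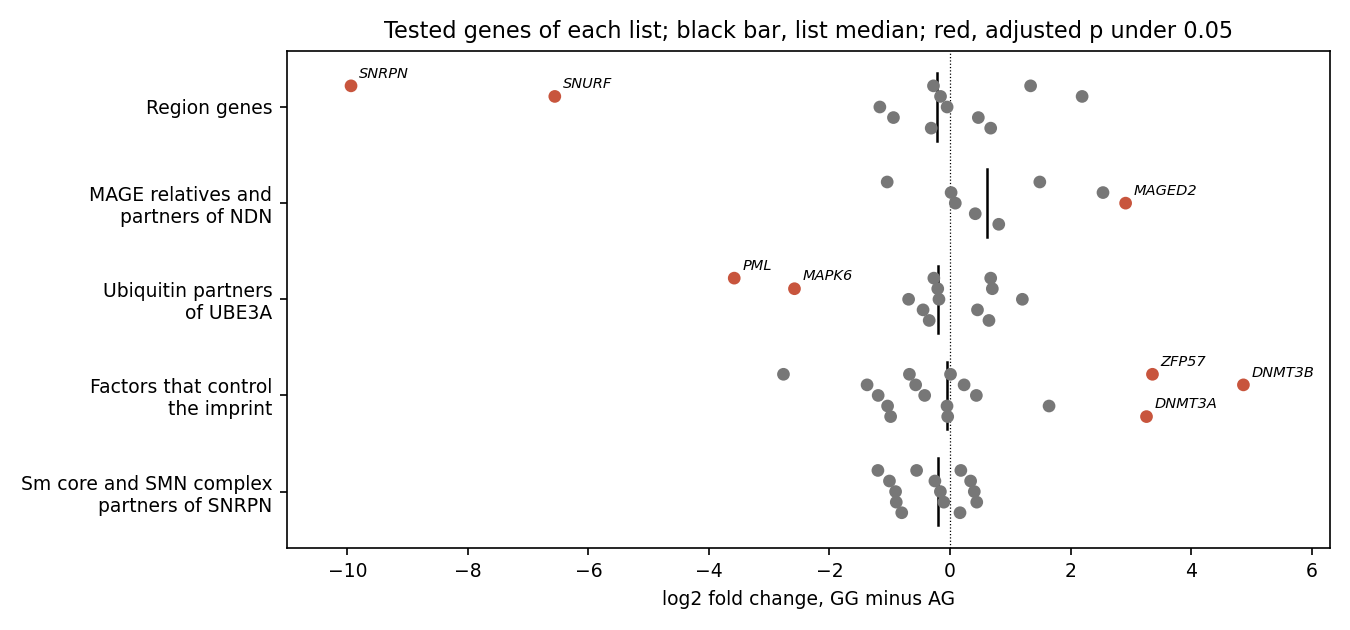
Log2 fold change (GG minus AG) of every tested gene in 5 lists; each point is a gene, black bars are list medians, and red points passed an adjusted p of 0.05 and are named. SNRPN and SNURF lie at -9.94 and -6.56, below all genes of the other lists, and the list medians lie between -0.22 and 0.61.

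Profiles over the 4 libraries were compared with those of 6464 other genes at 10 CPM or more in either group, by the Euclidean distance of centred log2(CPM + 0.5) values. The 3 genes nearest to SNRPN were ZNF518B and ZSCAN5A, both zinc finger genes, and C4H6orf163, at distances of 1.02, 1.15 and 1.18. All 3 were high in both AG libraries and at or below 1 CPM in both GG libraries; ZSCAN5A has near copies, so its counts are uncertain. Nearest to NDN were ENPP4, NDUFB8 and VARS1, at 0.0966 to 0.171. Nearest to UBE3A were DCUN1D5, ZDHHC20 and REXO2, at 0.0311 to 0.0459. With 4 libraries such distances describe these samples only.

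All 8 measured markers of early embryo cells had reads in every library, and 5 of them were called, beside 12.9% of all tested genes. KLF17 and DPPA4 were lower in GG (log2 fold changes -4.23 and -1.98), beside 6.58% of all tested genes. DPPA2, KHDC3L and TFCP2L1 were higher (3.34, 4.63 and 3.79), beside 6.34%. KHDC3L kept its call without either GG library. KLF17, DPPA4, DPPA2 and TFCP2L1 lost theirs, as did most genes called with all libraries. POU5F1 averaged 285 ± 147 CPM over AG and 472 ± 9.69 CPM over GG (SD, n = 2) and was not called. NANOG, also uncalled, differed between the AG libraries, at 151 CPM in replicate 1 and 25.04 CPM in replicate 2, and passed without replicate 1 (log2 fold change 2.43, adjusted p = 0.00722) but not without replicate 2 (-0.17, 0.633). These markers were named after their values were seen. SYN1 had 0 counts in all libraries, which allows up to 3 counts in each, and the 8 neuron markers summed to 12.5 to 23.7 CPM, mostly TUBB3. Of 8 measured cumulus cell markers, FSHR was at 0 throughout and the sum was 0.508 to 11.2 CPM. The highest sum, in GG replicate 2, was mostly TNFAIP6 (309 counts, 10.5 CPM). AMHR2 had 51 counts in AG replicate 1 and 7 in GG replicate 2. The 6 measured sperm markers summed to at most 0.499 CPM. The 6 measured blood cell markers summed to 155 and 68.4 CPM in AG and 14.8 and 17.8 CPM in GG. Most of the AG sum came from PTPRC, which was called lower in GG (log2 fold change -4.39, edgeR adjusted p = 0.0168). LYZ went the other way, at 0.427 and 1.27 CPM in AG against 5.37 and 9.82 CPM in GG. It was not called (log2 fold change 3.13, edgeR adjusted p = 0.0533). CD3E was at 0 in 3 of 4 libraries. The part of these differences in the values of SNRPN, SNURF, NDN and UBE3A was not tested. In bulk samples, fewer cells of a type and less RNA per cell cannot be told apart.

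**Figure D4:**
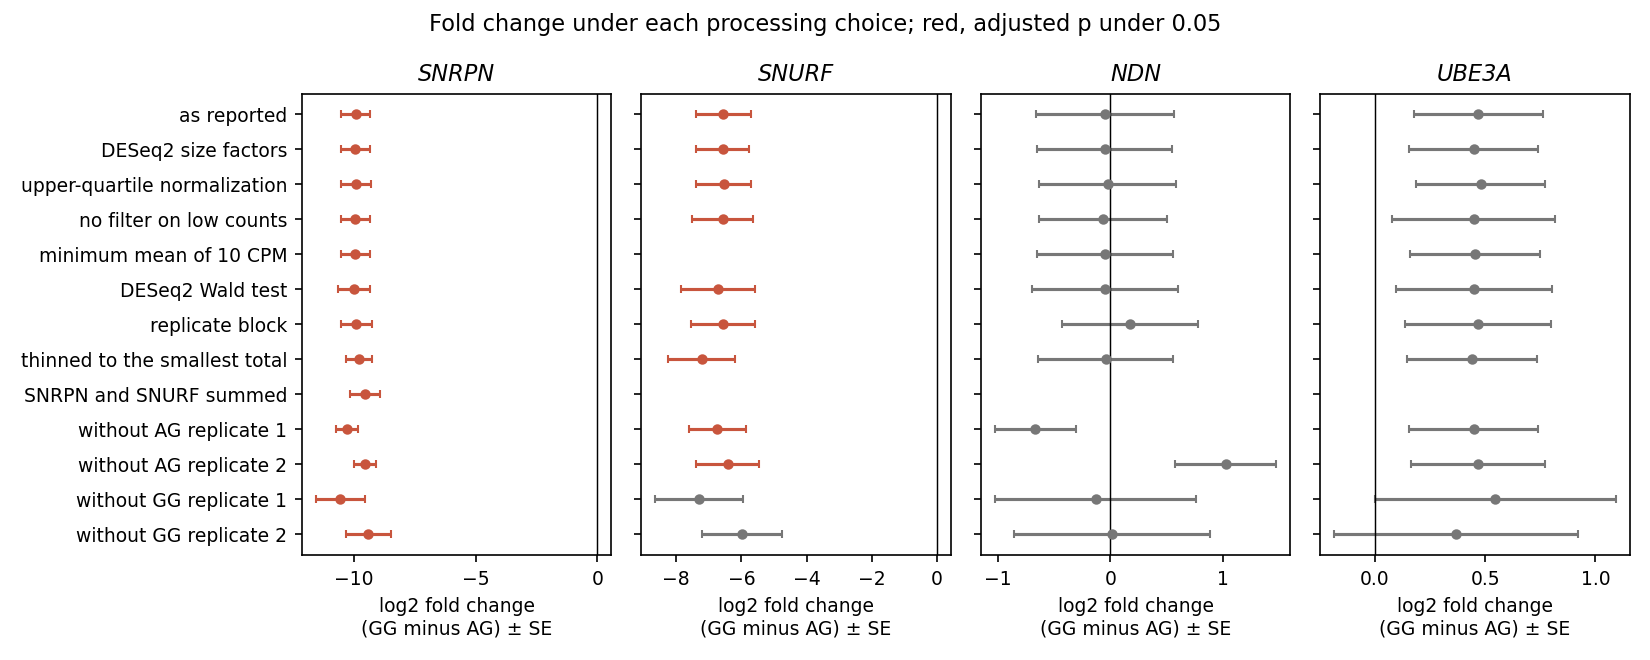
Log2 fold change (GG minus AG) ± SE of each gene as reported and under each alternative; red marks an adjusted p under 0.05, and a missing point means the gene was not tested under that setting. SNRPN stays between -10.57 and -9.42, SNURF between -7.30 and -5.98 and UBE3A between 0.37 and 0.55, while NDN lies on both sides of 0, from -0.67 to 1.03.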

How the data were processed

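RNA-seq libraries of 2 AG and 2 GG macaque morula samples were analysed; per the labels' protocols, cDNA was amplified with a SMARTer kit for low RNA input, and no molecular identifiers are named, so intervals cover counting error only. The authors deposited 1 table of estimated counts per Ensembl gene, not scaled to library size; 30.0% to 32.2% of values were not whole. Per the submitters' processing notes, the build was rheMac8 and the tools included Salmon 0.12.0, STAR 2.6.0c and Trim Galore; their roles, the annotation and the strand setting were not given in the sources used here. Symbols matched 14654 of 21314 genes (68.8%). Chromosome and gene order came by symbol from a table of assembly T2T-MMU8v2.0, which is not the build of the counts.

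The estimated counts, once rounded, were tested with edgeR 4.0.16 in R 4.3.3 (filterByExpr by group with minimum count 10 and minimum total 15, TMM, quasi-likelihood F test, group alone, Benjamini-Hochberg adjustment over 13227 genes). CPM are scaled to TMM-adjusted totals of tested genes. Standard errors are those implied by F. Levels were not compared between genes, as transcript lengths were not used. The script was tested on simulated data.

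Members, lists and the rule for naming were chosen with earlier results of these data known. The rule names all members, every measured region gene, up to 4 genes per other list (called first, then most abundant) and the 3 nearest profiles. Alternatives were other normalizations, filters, DESeq2 1.42.0, the replicate block, thinning, summing SNRPN with SNURF and leaving out each library. No sequence is shown because no sequence table was used here.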

Additional observations from a re-analysis of the deposited data

How the results depend on the processing

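SNRPN kept its direction and call in all 12 alternatives, SNURF in 8 of 10, and UBE3A stayed above 0 and uncalled in all 11. Adjusted p ran from 1.14e-47 to 0.0357 for SNRPN, 9.15e-08 to 0.111 for SNURF, 0.146 to 0.996 for NDN and 0.296 to 0.804 for UBE3A, the smallest for SNRPN and SNURF by DESeq2. Leaving out 1 library at a time gave log2 fold changes of -10.57 to -9.42 for SNRPN, -7.30 to -5.98 for SNURF, -0.67 to 1.03 for NDN and 0.37 to 0.55 for UBE3A, and a mean SNRPN share difference of -16.0 to -10.1 percentage points. NDN changed sign without AG replicate 2 (1.03), without GG replicate 2 (0.01) and with the replicate block (0.18), and was called in 0 of 11 alternatives. The uncalled genes SNRPD3 (-0.14 to 0.52), GABRA5 (-0.70 to 0.30), TUBGCP5 (-0.53 to 0.32) and NANOG (-0.17 to 2.43) also took both signs when 1 library was left out.

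Over all genes, 1709 were called. DESeq2 called 3327 and a fit without a filter on low counts called 2609. The count was 84 to 3786 with 1 library left out, at the low end when a GG library was missing; 1 such group has a single library, assumed to vary like the other group. Of the 12 region genes, 2 were called; DESeq2 called 4, a minimum mean of 10 CPM left 1 (9 tested, SNURF not among them), and leaving out 1 library gave 1 to 4. The replicate block called 1697 genes and changed the call of no member; same-numbered libraries did not deviate together beyond a correlation of 0.0986 across genes, so the labels' numbers were not taken as pairs. Summing all identifiers of a symbol was not run, since each member had 1. For the GG levels of SNRPN and SNURF the depth is the limit, at 1 to 5 counts a library.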
